A study of Homo sapiens with 4 samples.

Results

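Genes of iron uptake, storage and export were followed across 4 libraries of HepG2, a human hepatocellular carcinoma cell line grown in RPMI with fetal bovine serum. The 10 genes were picked by symbol: TF, TFRC, TFR2, SLC11A2, FTH1, FTL, SLC40A1, IREB2, HFE and TMPRSS6. Each was listed once in the count files, among 24462 genes in all. The cells had received DMSO, PD0332991 (written PD-0332991 in the labels, a CDK4/6 kinase inhibitor dissolved in DMSO), a scrambled siRNA, or siRNA against both CDK4 and CDK6 (CDK4/6 KD). PD0332991 was set against DMSO and CDK4/6 KD against scrambled siRNA, each condition with 1 library, so that no p-value could be computed and no difference had a replicate check. Neither the dose of PD0332991 nor the time of harvest for sequencing is given in the sources used here.

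A liver cell takes up iron from transferrin, the plasma carrier that it also secretes, and the transferrin receptor TFRC carries the loaded protein into endosomes, from which SLC11A2 (DMT1) passes iron to the cytosol. Iron that is not used is stored in ferritin, a shell of heavy (FTH1) and light (FTL) chains, or leaves through ferroportin, the product of SLC40A1. Hepatocytes also sense circulating iron, with TFR2 and HFE at the cell surface raising the hormone hepcidin and the protease TMPRSS6 (matriptase-2) holding it down. Inside the cell, the iron regulatory proteins, among them the IREB2 product IRP2, bind RNA hairpins called iron-responsive elements when iron is scarce. Such a hairpin in a 5′ UTR blocks translation, and hairpins in the 3′ UTR of TFRC protect the transcript from decay.

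The hairpin sequences are shown because they mark the transcripts through which iron is known to act on RNA. Protein-coding transcripts of GENCODE 29 were searched on the sense strand for a bulged C, any 5 bases and a loop of 6 bases reading CAGTGN, with all 5 bases paired to those after the loop (G-U pairs allowed). Matches were present in 291 of 19669 protein-coding genes (1.48%). Of the 10 iron genes, 5 held at least 1 match. In the sequences below the bulged C and the loop are in capitals, and positions refer to GRCh38, whereas the submitters' processing notes name hg19 for the reads.
TFRC, 3′ UTR, chr3:196050979-196051007, minus strand: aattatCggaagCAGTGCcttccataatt
TFRC, 3′ UTR, chr3:196050575-196050603, minus strand: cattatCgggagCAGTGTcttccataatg
TFRC, 3′ UTR, chr3:196050510-196050538, minus strand: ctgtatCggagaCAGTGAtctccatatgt
TFRC, 3′ UTR, chr3:196050463-196050491, minus strand: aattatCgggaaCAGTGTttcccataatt
FTH1, 5′ UTR, chr11:61967574-61967602, minus strand: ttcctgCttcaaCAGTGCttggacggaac
FTL, 5′ UTR, chr19:48965335-48965363, plus strand: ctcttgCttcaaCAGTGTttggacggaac
SLC40A1, 5′ UTR, chr2:189580661-189580689, minus strand: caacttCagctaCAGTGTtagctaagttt

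TFRC held 4 matches, each in 3 of its 4 protein-coding transcripts. FTH1, FTL and SLC40A1 held 1 each in the 5′ UTR, that of SLC40A1 in 1 of its 5 protein-coding transcripts. Hairpins with other letters or imperfect pairs would be missed, so these are counts of matches and not of all hairpins. The fifth gene, TF, matched once, in the 3′ UTR of 1 of its 3 protein-coding transcripts, TF-201 of 20602 bases. TFR2, HFE, IREB2, TMPRSS6 and SLC11A2 had no match, which says only that these letters and pairs were not found in their transcripts. Transcripts were read from their poly(A) ends, and the TFRC hairpins lie 1179 to 1695 bases before the end of TFRC-201, so the counts report transcript abundance and not the hairpins themselves or the protein made.

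Reads on the 10 genes made up 0.825% to 1.11% of a library, and 78.5% to 90.3% of them came from the ferritin chains FTH1 and FTL. The libraries held 8983848 to 11176880 reads. Levels are CPM, counts relative to library size after TMM scaling, which sets that size by the bulk of genes. The 95% intervals, found by the exact Clopper-Pearson method, describe how the reads of a gene divide between a pair of libraries. These intervals cover counting error only. They take no account of PCR copies or of differences between cultures. In CDK4/6 KD the targeted transcripts stood at 0.203 (CDK4) and 0.241 (CDK6) of their scrambled siRNA levels. Of 10 hepatocyte markers, all had at least 10 reads in every library, with summed levels of 17440 to 22299 CPM, while 4 of 7 macrophage and blood markers had no read in DMSO and CD68 alone passed 10 reads in any library. Keratinocyte markers were uneven. After PD0332991, 5 of the 8 tested were higher by 2-fold or more (beside 7.49% of all genes) and 1 lower (SFN, beside 7.07%). In CDK4/6 KD, 3 of 8 were higher (beside 9.19%) and 1 lower (beside 7.62%). Scrambled siRNA against DMSO had 5 of 8 higher (beside 5.3%) and 0 lower (beside 6.64%). KRT5, KRT14, KRT6A and KRT16 were tested against DMSO only through the other library, where they were high. Summed over the whole list of 14, the level ranged from 205 CPM in DMSO to 365 CPM in scrambled siRNA, with LOR at 0 in every library, and the part of such cells or programmes in the results below was not tested. Stromal markers summed to 8.60 to 78.9 CPM, most after PD0332991 and least in scrambled siRNA. Proliferation markers summed to 3654 CPM in DMSO, 477 in PD0332991, 2586 in scrambled siRNA and 1146 in CDK4/6 KD. In bulk RNA, fewer cells that express a gene and less RNA per cell cannot be told apart.

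**Figure D1:**
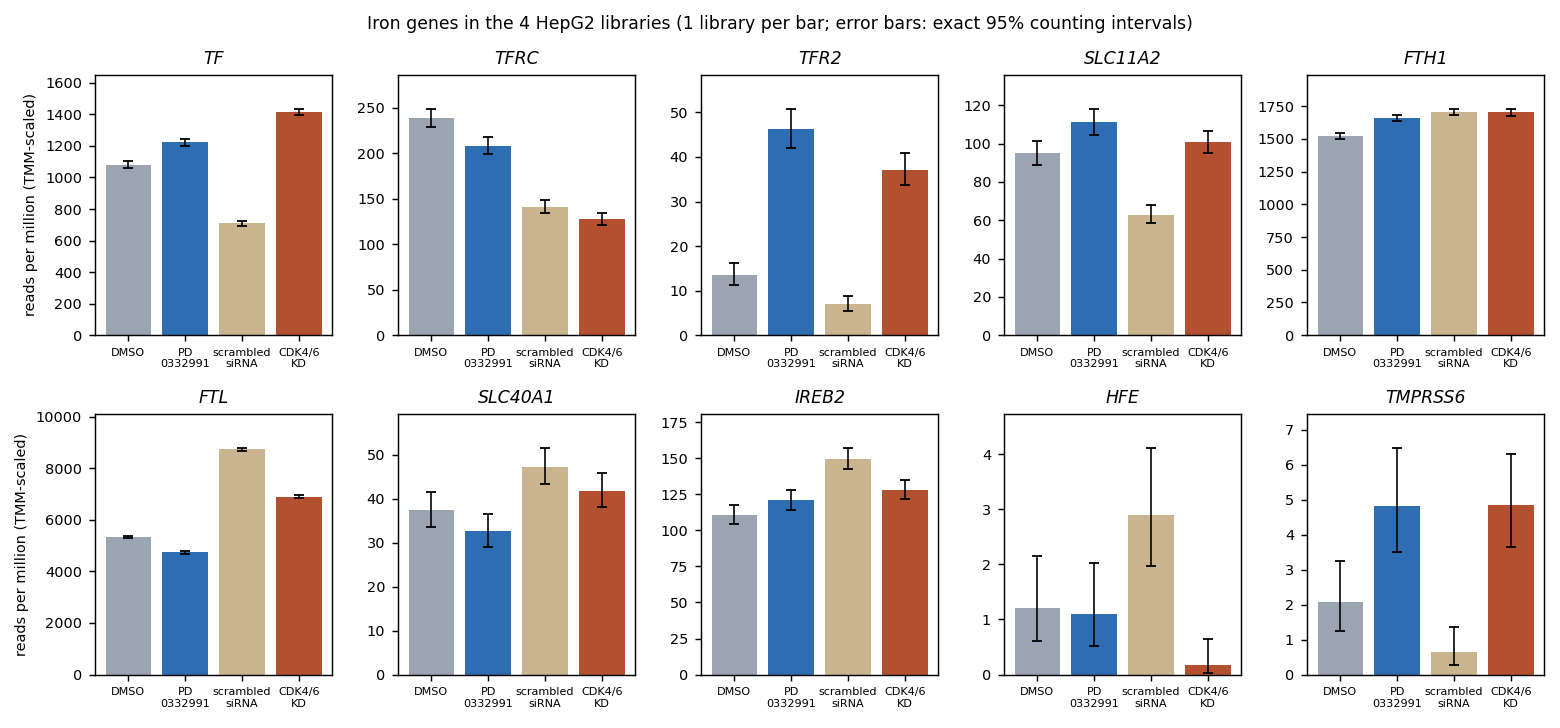
TMM-scaled CPM (vertical axis, from 0, scaled for each gene) of the 10 iron genes in the DMSO, PD0332991, scrambled siRNA and CDK4/6 KD libraries, 1 library per bar, with exact Poisson 95% counting intervals. TFR2 and TMPRSS6 stand higher in both inhibition libraries than in both controls, while TFRC steps down from DMSO to CDK4/6 KD and FTH1 stays between 1521 and 1706 CPM.

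The clearest difference was in the second transferrin receptor. TFR2, on chromosome 7 from 100620416 to 100642779 (GRCh38, minus strand), had 124 reads in DMSO, 421 in PD0332991, 75 in scrambled siRNA and 420 in CDK4/6 KD, or 13.6, 46.3, 7.06 and 37.2 CPM. Both inhibition libraries were above both controls. TFR2 was 5.26-fold higher in CDK4/6 KD (95% interval 4.13 to 6.86) and 3.40-fold higher after PD0332991 (95% interval 2.78 to 4.20). The controls differed as well, scrambled siRNA having 0.518 of the DMSO level (95% interval 0.382 to 0.693). Against DMSO, TFR2 in CDK4/6 KD had a fold change of 2.73 (95% interval 2.23 to 3.37), and PD0332991 against scrambled siRNA had one of 6.56 (95% interval 5.15 to 8.55), so that TFR2 was above 2-fold with either control.

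TMPRSS6, which cleaves the hepcidin co-receptor hemojuvelin, was also higher in both inhibition libraries, on few reads. It lies on chromosome 22 from 37065436 to 37109713 (minus strand), and its 19 reads in DMSO, 44 in PD0332991, 7 in scrambled siRNA and 55 in CDK4/6 KD correspond to 2.13, 4.88, 0.704 and 4.91 CPM. Both inhibition libraries were above both controls, and they did not differ from each other beyond counting error (ratio of CDK4/6 KD to PD0332991: 1.01, 95% interval 0.664 to 1.53). TMPRSS6 was 6.97-fold higher in CDK4/6 KD (95% interval 3.37 to 19.3) and 2.29-fold higher after PD0332991 (95% interval 1.33 to 4.21). The controls differed here too, scrambled siRNA having 0.331 of the DMSO level (95% interval 0.112 to 0.782), and against DMSO the CDK4/6 KD library was 2.31-fold higher (95% interval 1.37 to 4.17). PD0332991 was 6.94-fold above scrambled siRNA (95% interval 3.30 to 19.4), a comparison that TMPRSS6 entered only through its reads in PD0332991. GENCODE 29 places an antisense gene inside TMPRSS6, and whether the counting used the strand is not given in the sources used here. The same limit holds for TFRC, FTH1 and IREB2, whose spans also overlap genes on the opposite strand (BEST1 in the case of FTH1).

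HFE, the partner of TFR2 in iron sensing, was close to the limit of detection. It lies on chromosome 6 from 26087281 to 26098343 (plus strand) and had 11 reads in DMSO, 10 in PD0332991, 31 in scrambled siRNA and 2 in CDK4/6 KD. The CDK4/6 KD library was lowest and the scrambled siRNA library highest, and DMSO and PD0332991 did not differ beyond counting error (fold change: 0.916, 95% interval 0.347 to 2.37). The ratio of CDK4/6 KD to scrambled siRNA was 0.0768, with an interval of 0.00707 to 0.240 that reflects the 2 reads, and against DMSO it was 0.181 (95% interval 0.0158 to 0.672). Against scrambled siRNA, PD0332991 was at 0.390 (95% interval 0.166 to 0.793). HFE entered the CDK4/6 KD comparison only through its reads in scrambled siRNA, and TMPRSS6 only through its reads in CDK4/6 KD, so each had to differ there to be counted. Likewise, HFE entered the comparison of CDK4/6 KD with DMSO only through its reads in DMSO.

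The hepcidin transcript that these proteins control differed between the arms of the experiment. HAMP had 655 reads in the DMSO library and 394 with PD0332991, a ratio of 0.604 (95% interval 0.531 to 0.685). The scrambled siRNA library had 0 and CDK4/6 KD had 1, both under the 10 reads required for a test, so that no fold change was given for CDK4/6 KD.

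The iron carrier itself was higher in both inhibition libraries. TF, transferrin, on chromosome 3 from 133745956 to 133796640 (plus strand), had 9881 reads in DMSO, 11125 in PD0332991, 7589 in scrambled siRNA and 16017 in CDK4/6 KD, or 1081, 1222, 709 and 1415 CPM. All 4 libraries were apart by more than counting error, CDK4/6 KD being highest and scrambled siRNA lowest. TF was 2.00-fold higher in CDK4/6 KD (1.995 before rounding, 95% interval 1.94 to 2.05), just under the 2-fold threshold, and 1.13-fold higher after PD0332991 (95% interval 1.10 to 1.16). With total counts as library sizes, the CDK4/6 KD interval lay above the threshold (2.09 to 2.20), as it did with quantile normalization (2.35 to 2.48). Against DMSO, TF in CDK4/6 KD had a fold change of 1.31 (95% interval 1.28 to 1.34), and PD0332991 was 1.72-fold above scrambled siRNA (95% interval 1.67 to 1.77). Of the 10 hepatocyte markers, which include TF, 9 had a ratio above 1 in CDK4/6 KD and 8 after PD0332991. The median log2 difference was 0.27 in CDK4/6 KD (beside -0.004 over all genes tested) and 0.39 after PD0332991 (beside 0.02). The markers below 1 were APOB in CDK4/6 KD (0.868), and ALB (0.919) and AFP (0.687) after PD0332991. The share of all genes with a ratio above 1 was not computed. SRPRB, whose annotated span overlaps that of TF on the same strand, was at 0.865 of its control in CDK4/6 KD, opposite in direction to TF, and at 1.10 after PD0332991 (95% interval 1.02 to 1.19), in the direction of TF.

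The main transferrin receptor did not follow the carrier. TFRC, on chromosome 3 from 196027183 to 196082189 (minus strand), had 2185 reads in DMSO, 1898 in PD0332991, 1514 in scrambled siRNA and 1447 in CDK4/6 KD, or 239, 208, 142 and 128 CPM. The levels fell into an order with DMSO highest, then PD0332991, scrambled siRNA and CDK4/6 KD, and each neighbour was apart from the next by more than counting error. TFRC stood at 0.904 of its control in CDK4/6 KD (95% interval 0.840 to 0.972) and at 0.872 after PD0332991 (95% interval 0.819 to 0.927), both smaller differences than that between the controls (scrambled siRNA over DMSO: 0.592, 95% interval 0.554 to 0.632). With total counts as library sizes, the CDK4/6 KD interval included 1 (0.903 to 1.04). With the control of the other arm, CDK4/6 KD was at 0.535 of DMSO (95% interval 0.4999 to 0.572), whereas PD0332991 was 1.47-fold above scrambled siRNA (95% interval 1.38 to 1.58), so that its direction turned. TFRC is known as a gene of dividing cells. MKI67, the Ki67 gene, was at 0.0757 of its control after PD0332991 (95% interval 0.0668 to 0.0852). In CDK4/6 KD it was at 0.561 (95% interval 0.529 to 0.595). A link between the TFRC levels and cell division was not tested. The balance of TFR2 to TFRC was also read within each library, where scaling plays no part. There were 0.0568 TFR2 reads per TFRC read in DMSO and 0.0495 in scrambled siRNA, against 0.222 in PD0332991 and 0.290 in CDK4/6 KD.

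SLC11A2, the endosomal iron transporter, was higher in both inhibition libraries, by less than 2-fold. It lies on chromosome 12 from 50979401 to 51028566 (minus strand) and had 867 reads in DMSO, 1013 in PD0332991, 674 with scrambled siRNA and 1141 with CDK4/6 KD (94.9, 111, 63.0 and 101 CPM). Scrambled siRNA stood below the other libraries, and CDK4/6 KD and DMSO did not differ beyond counting error (fold change: 1.06, 95% interval 0.972 to 1.16). The fold change was 1.60 in CDK4/6 KD against scrambled siRNA (95% interval 1.45 to 1.76) and 1.17 after PD0332991 (95% interval 1.07 to 1.29), or 1.77 with PD0332991 set against scrambled siRNA (95% interval 1.60 to 1.95). SLC11A2 transcripts are known to end in different ways, 1 form with and 1 without an iron-responsive element, and counts per gene symbol do not separate them.

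The ferritin chains parted from each other. FTH1, the heavy chain with the ferroxidase activity, lies on chromosome 11 from 61959718 to 61967660 (minus strand) and had 13896 reads in DMSO, 15100 in PD0332991, 18254 in scrambled siRNA and 19258 in CDK4/6 KD, or 1521, 1658, 1706 and 1701 CPM. The spread over the 4 libraries was 1.12-fold, the smallest of the 10 genes. CDK4/6 KD did not differ from scrambled siRNA beyond counting error with TMM scaling (fold change: 0.997, 95% interval 0.977 to 1.02), but its interval lay above 1 with total counts as library sizes (1.05 to 1.09) and with quantile normalization (1.17 to 1.22). After PD0332991 it was 1.09 (95% interval 1.07 to 1.12), and exactly 1 with quantile normalization. Against DMSO, FTH1 in CDK4/6 KD was at 1.12 (95% interval 1.09 to 1.14), and PD0332991 against scrambled siRNA turned to 0.972 (95% interval 0.951 to 0.993).

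FTL, the light chain that supports iron mineral formation, lies on chromosome 19 from 48965301 to 48966878 (plus strand) and had 48699 reads in DMSO, 43110 in PD0332991, 93429 in scrambled siRNA and 78009 in CDK4/6 KD, or 5330, 4735, 8731 and 6892 CPM. Both siRNA libraries stood above the DMSO and PD0332991 libraries. FTL was the 3rd most counted gene in scrambled siRNA, the 4th in CDK4/6 KD and the 7th in DMSO and in PD0332991. FTL was at 0.789 of its control in CDK4/6 KD (95% interval 0.782 to 0.797) and at 0.888 after PD0332991 (95% interval 0.877 to 0.900), against 1.64 in scrambled siRNA to DMSO (95% interval 1.62 to 1.66). Against DMSO, FTL in CDK4/6 KD turned to a fold change of 1.29 (95% interval 1.28 to 1.31), and PD0332991 was at 0.542 of scrambled siRNA (95% interval 0.536 to 0.548).

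Within each library, where no scaling enters, the balance of the chains moved the same way in both arms. There were 3.50 FTL reads per FTH1 read in DMSO (95% interval 3.44 to 3.57) and 2.85 in PD0332991 (95% interval 2.80 to 2.91). In the siRNA arm the ratio was 5.12 in scrambled siRNA (95% interval 5.04 to 5.20) and 4.05 in CDK4/6 KD (95% interval 3.99 to 4.12). The ratio was thus lower with CDK4/6 inhibition in each arm, and higher in both siRNA libraries than in both others. CDK4/6 KD was therefore above DMSO, so that its direction turned with the other control. The gap between the controls was wider than the gap within either arm. GENCODE 29 lists 25 pseudogenes named for FTH1 and 16 named for FTL, and reads from such near copies make the ferritin counts less certain. The files list FTH1P3 with 29 to 54 reads per library, and FTH1P18 and FTLP10 at 0.

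Iron regulatory proteins act on TFRC and ferritin in opposite ways, protecting the TFRC transcript and blocking the translation of ferritin. A block of translation is not seen in read counts. The ratios below therefore compare transcripts only and do not measure the action of these proteins. There were 0.157 TFRC reads per FTH1 read in DMSO (95% interval 0.150 to 0.165), 0.126 in PD0332991 (95% interval 0.120 to 0.132), 0.0829 in scrambled siRNA (95% interval 0.0787 to 0.0874) and 0.0751 in CDK4/6 KD (95% interval 0.0712 to 0.0793). The ratio was lower with inhibition in both arms, and the gap between the arms was wider than the gap within either. Taken against FTL, the ratio hardly moved after PD0332991, from 0.0449 to 0.0440 with overlapping intervals, and was higher in CDK4/6 KD (0.0185, 95% interval 0.0176 to 0.0195) than in scrambled siRNA (0.0162, 95% interval 0.0154 to 0.0170). The direction of the TFRC to ferritin ratio in CDK4/6 KD therefore depended on the chain chosen.

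**Figure D2:**
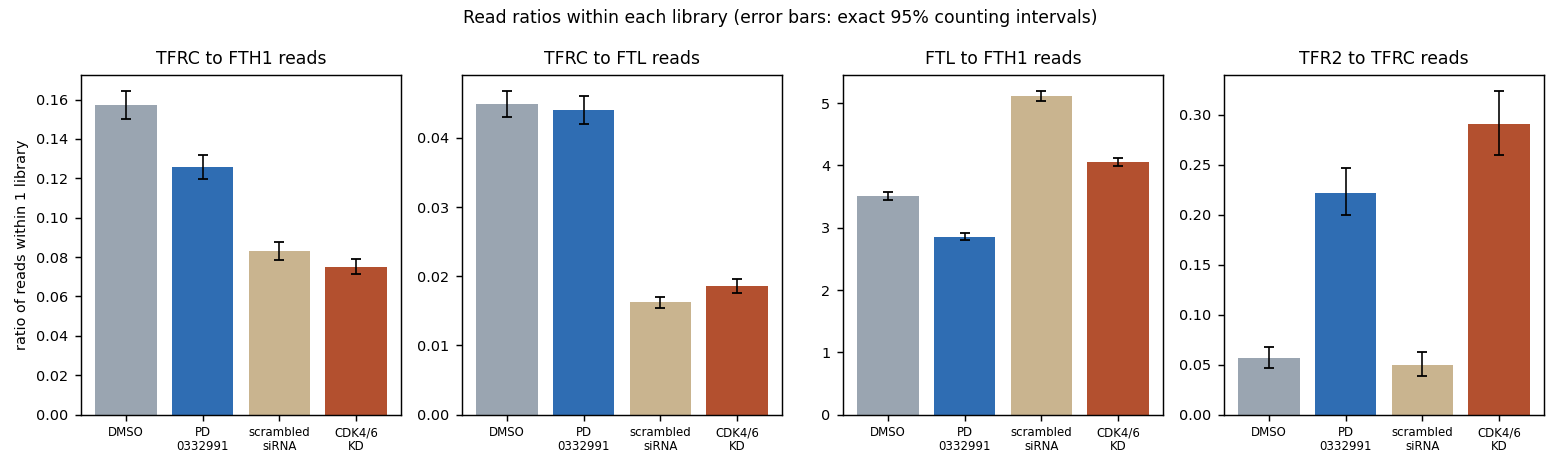
Ratios of reads within each library (vertical axis, from 0) for TFRC to FTH1, TFRC to FTL, FTL to FTH1 and TFR2 to TFRC, with exact 95% counting intervals, 1 library per bar. FTL to FTH1 is 3.50 in DMSO and 2.85 in PD0332991, 5.12 with scrambled siRNA and 4.05 with CDK4/6 KD, and TFR2 to TFRC is higher in both inhibition libraries.

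SLC40A1, which encodes the iron exporter ferroportin, was measured less precisely. It lies on chromosome 2 from 189560579 to 189583758 (minus strand) and had 342 reads in DMSO, 297 in PD0332991, 506 with scrambled siRNA and 474 with CDK4/6 KD (37.5, 32.7, 47.3 and 41.9 CPM). No pair of neighbours in the order of the 4 libraries was apart by more than counting error, although the highest and the lowest were (PD0332991 to scrambled siRNA: 0.690, 95% interval 0.596 to 0.798). The fold changes of 0.886 in CDK4/6 KD (95% interval 0.780 to 1.01) and 0.872 after PD0332991 (95% interval 0.743 to 1.02) had intervals that included 1. Against DMSO, SLC40A1 in CDK4/6 KD was at 1.12, on the other side of 1, also with an interval that included it (0.971 to 1.29).

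IREB2, the iron regulatory protein whose own level is set by protein decay, lay on opposite sides of its control in the 2 arms. It lies on chromosome 15 from 78437431 to 78501456 (plus strand) and had 1013 reads in DMSO, 1101 in PD0332991, 1603 in scrambled siRNA and 1453 in CDK4/6 KD, or 111, 121, 150 and 128 CPM. Scrambled siRNA was highest and DMSO lowest, with PD0332991 and CDK4/6 KD between them and not apart beyond counting error. The fold change was 0.857 in CDK4/6 KD (95% interval 0.798 to 0.920) and 1.09 after PD0332991 (95% interval 1.001 to 1.19, or 0.992 to 1.18 with DESeq2 size factors), and the controls differed by more than either (fold change: 1.35, 95% interval 1.25 to 1.46). With the control of the other arm both directions turned, to 1.16 for CDK4/6 KD over DMSO (95% interval 1.07 to 1.26) and 0.807 for PD0332991 over scrambled siRNA (95% interval 0.747 to 0.872).

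**Figure D3:**
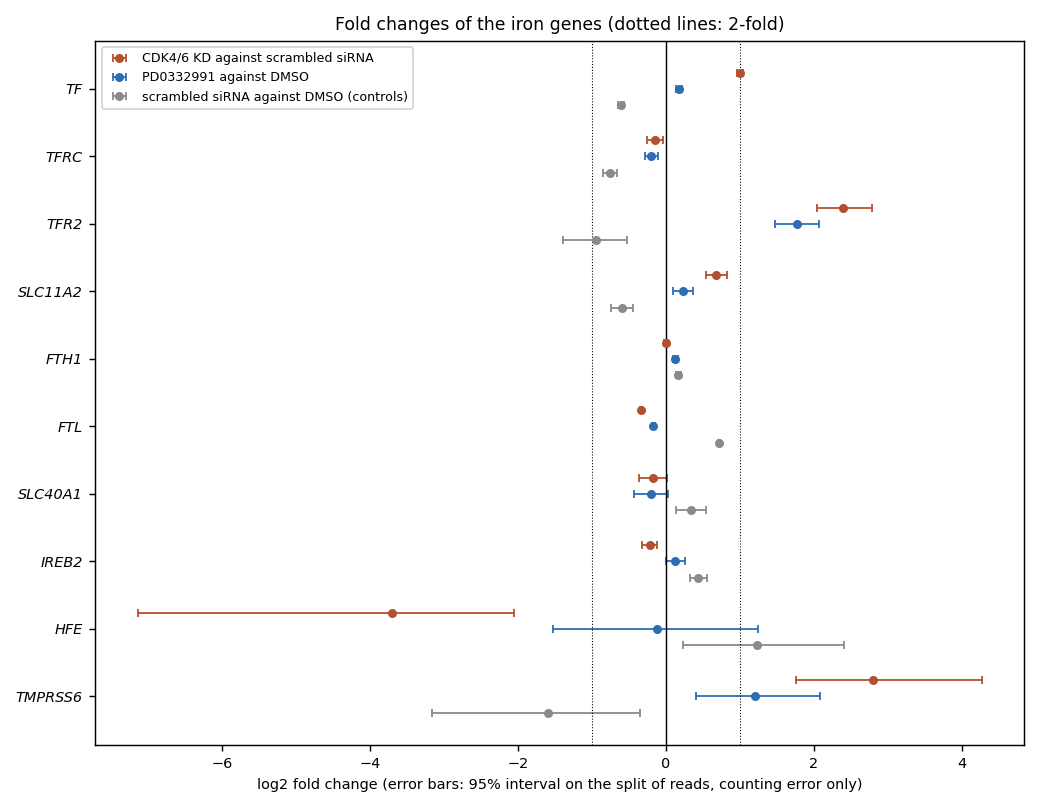
Log2 fold change (horizontal axis) of the 10 iron genes in CDK4/6 KD against scrambled siRNA, PD0332991 against DMSO and scrambled siRNA against DMSO, with 95% intervals on the split of reads and dotted lines at 2-fold. TFR2 and TMPRSS6 lie past 2-fold to the right in both inhibition comparisons. For 9 of the 10 genes the scrambled siRNA library was the highest or the lowest of the 4, beside 52.3% of all genes tested. Among the 9, FTH1 exceeded CDK4/6 KD by less than counting error.

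Counted together, 2 of the 10 genes were at least 2-fold higher in CDK4/6 KD (TFR2 and TMPRSS6), where 9.19% of 13617 genes tested were, and 1 was at least 2-fold lower (HFE), where 7.62% were. After PD0332991, 2 were at least 2-fold higher (TFR2 and TMPRSS6), beside 7.49% of 13443 genes, and 0 at least 2-fold lower, beside 7.07%. All 10 genes had at least 10 reads in 1 library of each comparison. With intervals wholly past 2-fold, 2 genes were higher in CDK4/6 KD (TFR2 and TMPRSS6, beside 3.33% of all genes) and 1 lower (HFE, beside 3.22%). After PD0332991 1 was higher (TFR2, beside 1.68%) and 0 lower (beside 3.38%). In the CDK4/6 KD counts, TMPRSS6 and HFE had passed the read filter only through the library where they were high. TFR2 alone was counted there free of that selection. Intervals above 1 were found for 4 genes in CDK4/6 KD (30% of all genes) and intervals below 1 for 4 (31.9%), against 6 (28.1%) and 2 (28.6%) after PD0332991. For the 10 genes the median log2 difference stood at -0.08 in CDK4/6 KD and 0.13 after PD0332991, beside -0.004 and 0.02 over all genes tested. Between the controls (scrambled siRNA against DMSO) it was -0.21, farther from 0 than either, beside 0.009 over all genes. Levels in both inhibition libraries above both controls were found for 4 genes (TFR2, TF, SLC11A2 and TMPRSS6), beside 21.3% of 13961 genes, and below both controls for HFE alone, beside 21%. Of the 4 genes with hairpins in a UTR known for iron regulation, TFRC, FTH1, FTL and SLC40A1, none reached 2-fold in either comparison. Most genes of any kind stayed within 2-fold too, since each direction of each comparison held only 7.07% to 9.19% of those tested. A count of 0 among 4 genes therefore does not set these genes apart.

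The scrambled siRNA library held an end position for most of these genes. Its level was the lowest of the 4 libraries for TFR2, TF, SLC11A2 and TMPRSS6, where it was lowest for 26.6% of all genes tested. It was the highest for FTH1, FTL, SLC40A1, HFE and IREB2, where it was highest for 25.7% of all genes, FTH1 exceeding CDK4/6 KD by less than counting error and falling below it with total counts or quantile normalization. Scrambled siRNA was thus at an end for 9 of the 10 genes, TFRC being the exception, beside 52.3% of all genes. DMSO was at an end for 3 (46.5% of all genes), PD0332991 for 4 (52.7%) and CDK4/6 KD for 4 (48.5%). Between the controls, 1 of the genes was at least 2-fold higher in scrambled siRNA (HFE) and 1 at least 2-fold lower (TMPRSS6), beside 5.3% and 6.64% of 13303 genes tested, and TMPRSS6 was tested there only through its reads in DMSO. Intervals past 2-fold were found for 0 genes in either direction (1.24% and 1.99% of all genes), intervals above 1 for 5 (28.3%) and below 1 for 5 (28%). Each CDK4/6 KD fold change above rests on that library, and the values against DMSO are given beside them for this reason. Transfection, culture and handling of that library cannot be told apart here.

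Beyond the 10 genes, 65 further iron genes were listed by role, of which 54 were tested in CDK4/6 KD and 55 after PD0332991. In CDK4/6 KD 7 of the 54 were higher by 2-fold or more, beside 9.19% of all genes, and 1 was lower by as much, beside 7.62%. The median log2 difference was 0.03, against -0.004 over all genes. After PD0332991 1 of the 55 was higher by 2-fold or more (beside 7.49%) and 0 lower (beside 7.07%), with a median of 0.07 against 0.02. That 1 gene, HEPHL1, went from 5 reads with DMSO to 14 with PD0332991, and its interval included 1 (0.956 to 9.97). It was tested only through the library where it was high, as was MCOLN1 in CDK4/6 KD, with 6 reads in scrambled siRNA and 16 in the knockdown (95% interval 0.937 to 7.87). The whole interval lay past 2-fold on the higher side for 5 genes in CDK4/6 KD (beside 3.33%) and on the lower side for 1 (beside 3.22%), and for 0 genes after PD0332991 (beside 1.68% and 3.38%).

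Of the 17 heme genes, HPX, HP and FLVCR2 were higher by 2-fold or more in CDK4/6 KD, beside 9.19% of all genes tested. HPX, hemopexin, which binds free heme, had 103 reads in DMSO, 106 in PD0332991, 85 in scrambled siRNA and 791 in CDK4/6 KD. CDK4/6 KD was 8.75-fold above scrambled siRNA (95% interval 7.03 to 11.1), and the PD0332991 interval included 1 (0.780 to 1.37). HP, haptoglobin, which binds free hemoglobin, had 2293, 2034, 850 and 2830 reads in the same order (fold change in CDK4/6 KD: 3.15, 95% interval 2.91 to 3.40). Here scrambled siRNA was the low library, with 79.5 CPM against 251 in DMSO, 223 in PD0332991 and 250.1 in CDK4/6 KD. FLVCR2, a heme transporter of the FLVCR family, had a fold change of 2.61 in CDK4/6 KD (95% interval 2.08 to 3.34) and 1.11 after PD0332991. The other 14 heme genes, which include the synthesis enzymes and HMOX1, were within 2-fold in both comparisons. In CDK4/6 KD, 6 of the 17 had intervals above 1 (beside 30% of all genes) and 6 below 1 (beside 31.9%). These counts are near the shares over all genes.

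STEAP3, the reductase that prepares endosomal iron for SLC11A2, had 229 reads in DMSO, 175 in PD0332991, 73 in scrambled siRNA and 243 in CDK4/6 KD. As with SLC11A2, scrambled siRNA was the low library (fold change in CDK4/6 KD: 3.13, 95% interval 2.41 to 4.15, and after PD0332991 0.767, 95% interval 0.626 to 0.938). FURIN, a convertase that processes hepcidin and hemojuvelin, had 37.9 CPM in DMSO, 69.3 in PD0332991, 11.8 with scrambled siRNA and 31.4 with CDK4/6 KD (fold change: 2.66 in CDK4/6 KD and 1.83 after PD0332991). GDF15, a stress cytokine that has been linked to hepcidin, was the 1 listed gene with an interval past 2-fold on the lower side, with 909 CPM in CDK4/6 KD against 2016 for scrambled siRNA (a ratio of 0.451, 95% interval 0.440 to 0.461), while DMSO had 937 and PD0332991 had 1359. In CDK4/6 KD, STEAP3, FURIN, HP and GDF15 were thus nearer to DMSO than scrambled siRNA was.

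The other 4 iron sensing genes lay within 2-fold in both comparisons. ACO1, the second iron regulatory protein, was at 0.864 of its control in CDK4/6 KD (95% interval 0.761 to 0.980) and at 0.845 after PD0332991 (95% interval 0.736 to 0.970). FBXL5, the ligase subunit that marks IRP2 for decay, was at 0.768 (95% interval 0.628 to 0.935) and 0.780 (95% interval 0.610 to 0.994). NCOA4, which delivers ferritin to lysosomes and was listed with the ferritin chaperones, was at 1.05 and 1.11. None of the 14 genes of iron-sulfur cluster assembly reached 2-fold in either comparison, GLRX5 being the highest in both (1.81 in CDK4/6 KD and 1.30 after PD0332991). CP, ceruloplasmin, the ferroxidase that works with ferroportin, was at 0.560 in CDK4/6 KD (95% interval 0.468 to 0.667) and at 1.09 after PD0332991 (95% interval 0.940 to 1.26).

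**Figure D4:**
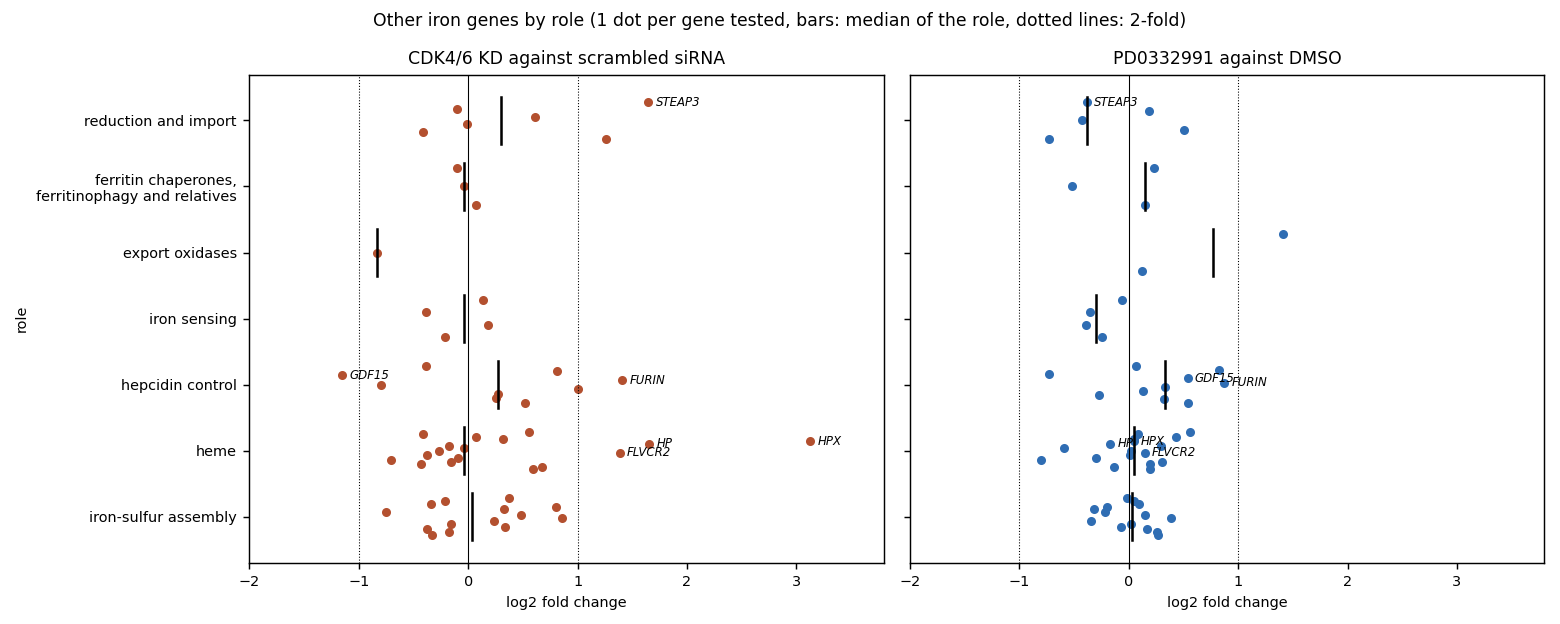
Log2 fold change (horizontal axis) of the other iron genes by role (vertical axis) in CDK4/6 KD against scrambled siRNA and in PD0332991 against DMSO, 1 dot per gene tested, with a bar at the median of each role and dotted lines at 2-fold. HPX lies farthest to the right in CDK4/6 KD and next to 0 after PD0332991, and all 14 iron-sulfur genes lie between the dotted lines in both comparisons. Of all genes tested, 9.19% in CDK4/6 KD and 7.49% after PD0332991 were at least 2-fold higher, and 7.62% and 7.07% at least 2-fold lower.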

How the data were processed

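RNA of 4 HepG2 cultures was read with QuantSeq 3′ mRNA sequencing. The deposited files hold unnormalized read counts by gene symbol, 1 file per library. The submitters' processing notes name Bowtie2, edgeR and hg19. The counter, annotation and strand setting are not given in the sources used here. Each file lists 25737 entries, and counts of the 286 repeated symbols were summed. Groups came from the sample titles. Library sizes were corrected with TMM (edgeR 4.0.16, R 4.3.3), with library totals of 8983848 to 11176880 reads and 0.5 reads added, scaled to library size. A gene was tested where either library had 10 reads or more, and 3 reads were the floor. Because edgeR's quasi-likelihood test needs replicates, only ratios with 95% Clopper-Pearson intervals (scipy 1.17.1) were computed. They were tested on simulated data. The 10 genes and the iron and marker lists were chosen with earlier results of these data known. Of the iron list, genes with a whole interval past 2-fold were named by rule. HAMP, SRPRB, MKI67, HEPHL1, MCOLN1, ACO1, FBXL5, NCOA4, GLRX5, CP and the FTH1 pseudogenes were chosen for naming with their values known, and the TFRC to FTL and TFR2 to TFRC ratios were added at that stage. Alternatives were DESeq2 1.42.0 size factors, total counts, quantile normalization (limma 3.58.1), other pseudocounts, filters and thresholds, the most counted entry of repeated symbols, and the control library of the other arm.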

Additional observations from a re-analysis of the deposited data

Results flagged for a closer look

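IREB2 was the gene among the 10 whose intervals lay on opposite sides of 1 in the 2 inhibition comparisons, with a fold change of 0.857 in CDK4/6 KD against scrambled siRNA and 1.09 after PD0332991 against DMSO. The difference between these values was not tested, and with 1 library per condition it could not be. Between the controls IREB2 differed by more, at 1.35 for scrambled siRNA over DMSO, and with DESeq2 size factors the PD0332991 interval included 1 (0.992 to 1.18). With the control of the other arm both directions turned, to 1.16 for CDK4/6 KD over DMSO and 0.807 for PD0332991 over scrambled siRNA. No group held enough libraries to look for an outlying sample.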

How the results depend on the processing

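No paired analysis was possible because each condition had 1 library and the labels give no replicate numbers. With 1 library per condition no replicate could be left out. Of 225 single-gene values under the alternatives, 191 stayed within the main interval and 29 left it. The remaining 5, whose main interval excluded 1, turned in direction, each with the control library of the other arm. These log2 fold changes were 0.37 for FTL and 0.21 for IREB2 in CDK4/6 KD, and 0.56 for TFRC, -0.041 for FTH1 and -0.31 for IREB2 after PD0332991. In CDK4/6 KD, FTH1 and SLC40A1, whose main intervals included 1, also changed sign and are among the 29, FTH1 with total counts (0.10), quantile normalization (0.26) and the other control (0.16), and SLC40A1 with the other control (0.16). The use of the other control left 2 of 20 values within the main interval. With DESeq2 size factors and with 5 added reads none moved. The read filters do not enter a fold change, so the 30 values with no filter and the 25 with 50 reads repeat the main ones. No iron gene was listed more than once, so the most counted entry (30 values) changed only the library sizes. These values are among the 191 but are no check of the fold changes. The number of genes at least 2-fold higher in CDK4/6 KD went from 2 to 3 (with TF) with total counts or quantile normalization and to 4 at a threshold of 1.5-fold, and the number lower from 1 to 0 when 50 reads were required. After PD0332991 the number higher went from 2 to 1 with 50 reads or with the whole interval past 2-fold, and the number lower from 0 to 1 (HFE) against scrambled siRNA. Between the controls the number higher in scrambled siRNA went from 1 to 0 with 5 added reads, 50 reads required or the whole interval, and to 2 at 1.5-fold. The number lower there went from 1 to 0 with 50 reads or the whole interval, to 2 with total counts and to 5 at 1.5-fold. HFE, below both controls in the inhibition libraries, was removed by the 50-read filter, which left 0 such genes. The median log2 fold change in CDK4/6 KD of -0.08 became 0.029 with total counts, which moved the median of all genes to 0.10, and 0.10 with quantile normalization, -0.0039 with 50 reads and 0.19 against DMSO. After PD0332991 the median of 0.13 became 0.045 with quantile normalization and 0.26 against scrambled siRNA. Depth limited HFE and TMPRSS6, whose intervals spanned the widest ranges.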
